A study of Bos taurus with 96 samples.

Results

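Lactoferrin (LTF, Ensembl gene ENSBTAG00000001292) was followed in liver and skeletal muscle biopsies of Holstein cows across late pregnancy (LP), early lactation around calving (EL) and mid-lactation (ML). LTF is 1 of the 24616 gene identifiers counted in the series. It was chosen by its measured readout, the changes of its read counts from LP to EL to ML within the same cows in liver and in muscle, so its own time course is given here as a description and no test is made of it. The 16 cows came from a genetic model of fertility in which 8 had good (Fert+) and 8 had poor (Fert-) genetic merit for calving interval at similar merit for milk production. Both genotypes mixed first and second parity animals, were kept as a single herd and were not bred in the lactation sampled. Each cow gave a liver and a semitendinosus muscle biopsy at each time-point, which made 8 libraries for each combination of tissue, time-point and genotype, 48 in each tissue and 96 in all. The purpose of the series was to compare the genotypes at each time-point. The biopsies are whole tissue, so fewer cells of a type and less RNA per cell cannot be told apart.

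Lactoferrin is an iron-binding glycoprotein of the transferrin family. It is secreted by glandular epithelia into milk and other exocrine fluids and is stored in the specific granules of neutrophils, from which it is released during inflammation. By binding ferric iron it withholds the metal from bacteria, and circulating lactoferrin is taken up by hepatocytes. The dry period and the days around calving are known for large shifts in lactoferrin secretion by the mammary gland, which was not sampled here.

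Read totals ran from 14966847 to 26358063 per library in liver and from 15279337 to 22018740 in muscle. LTF received between 102 and 4331 read pairs per liver library (median 429) and between 1 and 27 per muscle library (median 8.5), so counting error was small in liver and large in muscle. In liver the coefficient of variation of LTF within a genotype and time-point was 36.8 to 72.8%, against 2.45 to 6.54% from counting alone. In muscle it was 36.3 to 78.5%, against 24.5 to 53.5% from counting alone. In 13 of the 96 libraries, 11 or more of a set of 19 genes that the other libraries almost lack were counted at high level. These libraries, which no label sets apart, were 8 from liver (6 Fert+ and 2 Fert-) and 5 from muscle (0 Fert+ and 5 Fert-), and values without them are given below as values without the 19-gene libraries. They are too few at any time-point for a comparison among themselves. The skeletal muscle and hepatocyte marker genes marked their own tissues, but both lists moved in muscle over time. The skeletal muscle genes fell in muscle at EL and the hepatocyte genes rose there at ML, and both are described with the muscle results.

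In liver, LTF stood higher at ML than at LP in 16 of 16 cows. Levels are given in CPM, the read pairs of the gene scaled to a common library total after adjustment by trimmed mean of M-values (TMM) factors. At LP the Fert+ cows ranged from 5.90 to 20.8 CPM with a median of 10.7, and the Fert- cows from 11.0 to 35.8 CPM with a median of 21.5. At EL the Fert+ range was 7.75 to 27.9 CPM with a median of 12.7, and the Fert- range was 9.33 to 121 CPM with a median of 43.6. At ML the Fert+ cows lay between 10.9 and 49.9 CPM with a median of 27.0, and the Fert- cows between 17.3 and 167 CPM with a median of 62.0. The highest libraries at EL and ML were thus all from Fert- cows, while the lowest Fert- cows fell within the Fert+ range at every time-point. Ordered by median, the 6 liver groups ran from ML Fert- through EL Fert-, ML Fert+, LP Fert- and EL Fert+ to LP Fert+, and the ranges of every pair of neighbours in that order overlapped.

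At ML the high end of the liver range was formed by 4 Fert- cows. Cow 829 had 167 CPM, cow 419 had 116 CPM, cow 982 had 97.5 CPM and cow 426 had 74.3 CPM, all above the highest Fert+ cow (cow 430, 49.9 CPM). The other Fert- cows at ML included the second lowest liver level of that time-point, 17.3 CPM in cow 1179. The cows differed in when they rose. Cow 419 went from 20.5 CPM at LP to 121 CPM at EL and stayed at 116 CPM, whereas cow 426 fell from 24.9 to 9.33 CPM at EL before it reached 74.3 CPM.

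In muscle, LTF was near the lower limit of what these libraries could count and was highest at EL in 11 of 16 cows. At LP the Fert+ cows ranged from 0.0558 to 0.784 CPM with a median of 0.293, and the Fert- cows from 0.129 to 0.886 CPM with a median of 0.470. At EL the Fert+ range was 0.358 to 1.36 CPM with a median of 0.881, and the Fert- range was 0.389 to 1.10 CPM with a median of 0.667. At ML the Fert+ cows lay between 0.0643 and 0.375 CPM with a median of 0.193, and the Fert- cows between 0.272 and 1.12 CPM with a median of 0.565. The genotypes overlapped widely at LP and EL, and at ML 7 of the 8 Fert- cows were above every Fert+ cow. The order by median was EL Fert+, EL Fert-, ML Fert-, LP Fert-, LP Fert+ and ML Fert+, and each neighbouring pair overlapped.

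The tissues did not overlap. The lowest liver level was 5.90 CPM at LP, 7.75 CPM at EL and 10.9 CPM at ML, and the highest muscle level was 0.886, 1.36 and 1.12 CPM at the same time-points. Within a cow, liver exceeded muscle by a median of 56.8 times at LP, 39.4 times at EL and 127 times at ML.

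**Figure D1:**
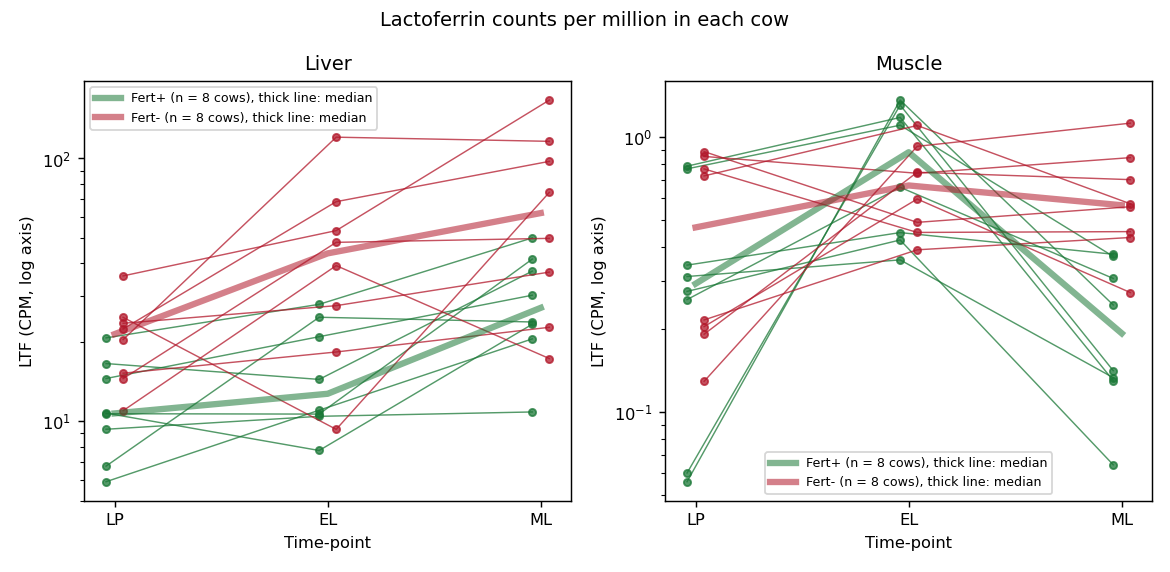
LTF in CPM on a log axis at LP, EL and ML, with a thin line for each cow and a thick line for the median of 8 Fert+ (green) or 8 Fert- (red) cows, in liver (left) and muscle (right). In liver most lines climb to ML and the red lines reach 167 CPM, while in muscle the Fert+ median peaks at EL at 0.881 CPM and falls to 0.193 CPM at ML.

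Over time, fitted LTF levels climbed to ML in liver and were highest at EL in muscle, and the difference between the tissues was not tested. The following are fitted log2 fold changes with standard errors (SE) from the model with cow as a block, over 16 cows and both genotypes together. In liver LTF changed by 0.72 ± 0.22 from LP to EL, by 0.68 ± 0.22 from EL to ML and by 1.40 ± 0.22 from LP to ML, the last being 2.64-fold. The level was higher at EL than at LP in 12 of 16 cows and higher at ML than at EL in 13 of 16. Of the 13815 genes fitted in liver, 21 had a larger log2 fold change from LP to ML than LTF, and 202 had a larger one from LP to EL. In muscle the fitted change was 0.89 ± 0.29 from LP to EL, -0.88 ± 0.29 from EL to ML and 0.01 ± 0.31 from LP to ML. Muscle LTF was higher at EL than at LP in 13 of 16 cows, and 11 of 16 cows were lower at ML than at EL. The genes of the muscle fibre moved in the opposite direction at the same time-points. The skeletal muscle list holds proteins of the muscle fibre such as the actin ACTA1 and the creatine kinase CKM. All 11 of its identifiers were called lower at EL than at LP (median log2 fold change -1.08), against 27.5% of all muscle genes. All 11 were called higher at ML than at EL (median 1.32), against 31.5% of all muscle genes. Their summed level in muscle ranged from 158496 to 251242 CPM at LP (median 220914), from 31598 to 223472 CPM at EL (median 81356) and from 213372 to 292962 CPM at ML (median 250717). At EL the Fert+ median was 127852 CPM and the Fert- median 72656 CPM. The part of this shift in the muscle levels of LTF was not tested. In a fit that left out the 19-gene libraries, the liver changes of LTF became 0.60, 0.74 and 1.34 and the muscle changes 0.80, -0.94 and -0.15. Across all fitted genes the median log2 change lay within 0.02 of 0 in each of these 6 comparisons.

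Counting error bears on these changes in muscle far more than in liver. The exact 95% binomial interval of the ratio of counts in a single cow lay above 1 for 15 of 16 cows in liver from LP to ML, and below 1 for 0 of 16. From LP to EL in liver it lay above 1 for 11 cows and below 1 for 2. In muscle it lay above 1 for 4 of 16 cows from LP to EL and below 1 for 4 of 16 from EL to ML. The largest ratios in muscle rest on a single read pair at LP. Cow 756 had 1 read pair at LP and 23 at EL, a ratio of 24.4 with an interval of 3.96 to 1006, and cow 3397 had 1 and 27, a ratio of 21.8 with an interval of 3.59 to 891. These intervals cover counting error only.

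**Figure D2:**
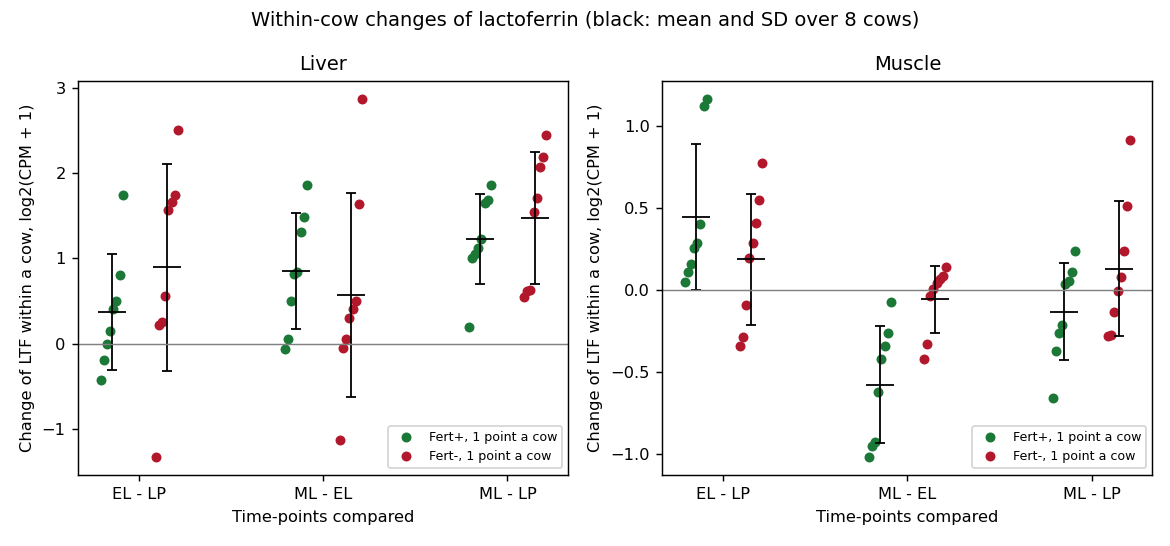
Change of LTF within each cow on the log2(CPM + 1) scale for EL minus LP, ML minus EL and ML minus LP, with Fert+ cows in green, Fert- cows in red and the mean and SD of 8 cows in black. In liver all 16 points of ML minus LP are above 0, and in muscle all 8 Fert+ points of ML minus EL are below 0 while 5 of 8 Fert- points are above it. On this scale the small muscle levels are compressed, so the muscle changes are smaller than the fitted log2 fold changes.

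The genotypes were compared at each time-point with edgeR's quasi-likelihood test, adjusted by the Benjamini-Hochberg method over all genes. The study itself lists LTF from these same samples, so this comparison is not independent evidence about the gene. In liver the mean LTF level was higher in Fert- than in Fert+ cows at all time-points. At LP the Fert+ mean was 11.9 ± 5.07 CPM (SD, n = 8) and the Fert- mean 21.0 ± 7.72 CPM, a log2 fold change (Fert+ relative to Fert-) of -0.82 ± 0.26 (SE) with an edgeR adjusted p of 0.731. At EL they were 16.01 ± 7.56 and 48.1 ± 35.0 CPM, a log2 fold change of -1.59 ± 0.42 with an edgeR adjusted p of 0.379. At ML they were 29.7 ± 12.6 and 72.7 ± 51.7 CPM, a log2 fold change of -1.29 ± 0.43 with an edgeR adjusted p of 0.284. None of these passed the threshold of 0.05 over all genes, and neither did any other gene in liver. Of all genes, edgeR called 0% at LP, 0% in the EL livers and 0% in the ML livers, while 842, 1530 and 1640 genes had an unadjusted p below 0.05. DESeq2 called 0, 12 and 77 genes in liver at LP, EL and ML, LTF not among them, and edgeR's exact test with a single common dispersion called 306, 301 and 279, LTF among them each time. The study also used a common dispersion, with another gene filter that was not applied here.

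For the single value of LTF, an exact two-sided permutation test was run on the difference of mean log2(CPM + 1). It took the 12870 arrangements of 16 cows, and 6 such comparisons were made. LTF was chosen with earlier results of these data known, and this test is not adjusted over genes. For liver the permutation p-values were 0.0113 (LP), 0.0134 (EL) and 0.0449 (ML), and after Benjamini-Hochberg adjustment over the 6 comparisons 0.0267, 0.0267 and 0.0674. All 8 Fert+ cows lay below the Fert- median at each time-point in liver. At EL 5 of the 8 Fert- cows lay above every Fert+ cow, and at LP and ML 4 did.

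In muscle the permutation test, which is not adjusted over genes, separated the genotypes at ML, and the test over all genes did not. The usual filter on low counts removes LTF at LP and ML, so its values there come from the fit of all genes. At LP the Fert+ mean was 0.356 ± 0.280 CPM (SD, n = 8) and the Fert- mean 0.496 ± 0.336 CPM, with a log2 fold change of -0.46 ± 0.49 and an edgeR adjusted p of 0.826. At EL they were 0.855 ± 0.426 and 0.680 ± 0.247 CPM, with a log2 fold change of 0.32 ± 0.32 and an edgeR adjusted p of 0.729. At ML they were 0.221 ± 0.120 and 0.619 ± 0.267 CPM, with a log2 fold change of -1.44 ± 0.36 and an edgeR adjusted p of 0.549. The exact permutation p was 0.408 for LP, 0.391 for EL and 0.000932 for ML, or 0.408, 0.408 and 0.00559 after adjustment over the 6 comparisons. Over all genes edgeR called 0% in muscle at LP, 0.00831% (1 of 12035 genes, not LTF) at EL and 0% at ML. An unadjusted p below 0.05 was found for 1205, 1426 and 1324 genes, and DESeq2 called 28, 157 and 13. The ML levels rest on few read pairs, a median of 3 per library in Fert+ and 9 in Fert- cows. Without the 19-gene libraries the log2 fold changes were -0.88, -1.35 and -1.12 in liver at LP, EL and ML (edgeR adjusted p = 0.707, 0.491 and 0.395), and -0.58, 0.32 and -1.54 in muscle (edgeR adjusted p = 0.749, 0.772 and 0.473).

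The difference between the genotypes in the time course of LTF is described by the interaction terms of genotype and time-point. No test is made of them, since the time course served to choose LTF. The fit did not block by cow, so its SE treat the libraries of a cow as independent. In liver the change from LP in Fert+ relative to Fert- cows was -0.77 ± 0.56 (SE) on the log2 scale at EL and -0.48 ± 0.56 at ML. In muscle it was 0.77 ± 0.56 at EL and -0.996 ± 0.616 at ML. With the cow as a replicate block the liver terms were -0.61 at EL and -0.22 at ML. Within muscle, LTF fell from EL to ML in 8 of 8 Fert+ cows, with a median ratio of 0.257, and in 3 of 8 Fert- cows, with a median ratio of 1.06.

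Whether a cow with much LTF in one biopsy also had much in another was examined with 9 correlations of log2(CPM + 1) over 16 cows. A two-sided permutation test of 100000 resamples was used, with Benjamini-Hochberg adjustment over the 9. These correlations use the values by which LTF was chosen, so their p-values are not independent evidence about the gene. Within liver, LP and ML went together, with Pearson's r = 0.80 (permutation p = 0.000170, adjusted 0.00153) and Spearman's rho = 0.74 (permutation p = 0.00142, adjusted 0.0128). The relation remained at r = 0.73 without the 2 cows farthest from the LP median, and was 0.65 within Fert+ and 0.82 within Fert- cows. Liver EL and ML had r = 0.61 (permutation p = 0.0124, adjusted 0.0455) and rho = 0.52 (permutation p = 0.0387, adjusted 0.174). That relation dropped to r = 0.40 without the 2 cows farthest from the EL median (419 and 982) and to 0.40 without the 19-gene libraries, so it rests in part on those samples. Liver LP and EL had r = 0.47 (permutation p = 0.0674, adjusted 0.152) and rho = 0.42 (permutation p = 0.104, adjusted 0.234).

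Between the tissues, LTF of liver and muscle had r = 0.59 at ML (permutation p = 0.0152, adjusted 0.0455) and rho = 0.48 (permutation p = 0.0602, adjusted 0.180). Fert- cows were higher in both tissues at ML, and within the genotypes r was 0.51 in Fert+ and 0.32 in Fert- cows. The LP samples had r = 0.03 (permutation p = 0.920, adjusted 0.933), and the EL samples -0.31 (permutation p = 0.236, adjusted 0.424). Within muscle the pairs of time-points gave r of -0.07 for LP and EL, 0.02 for EL and ML and 0.18 for LP and ML, with adjusted permutation p-values of 0.933, 0.933 and 0.738. The muscle levels behind these values rest on a median of 8.5 read pairs.

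**Figure D3:**
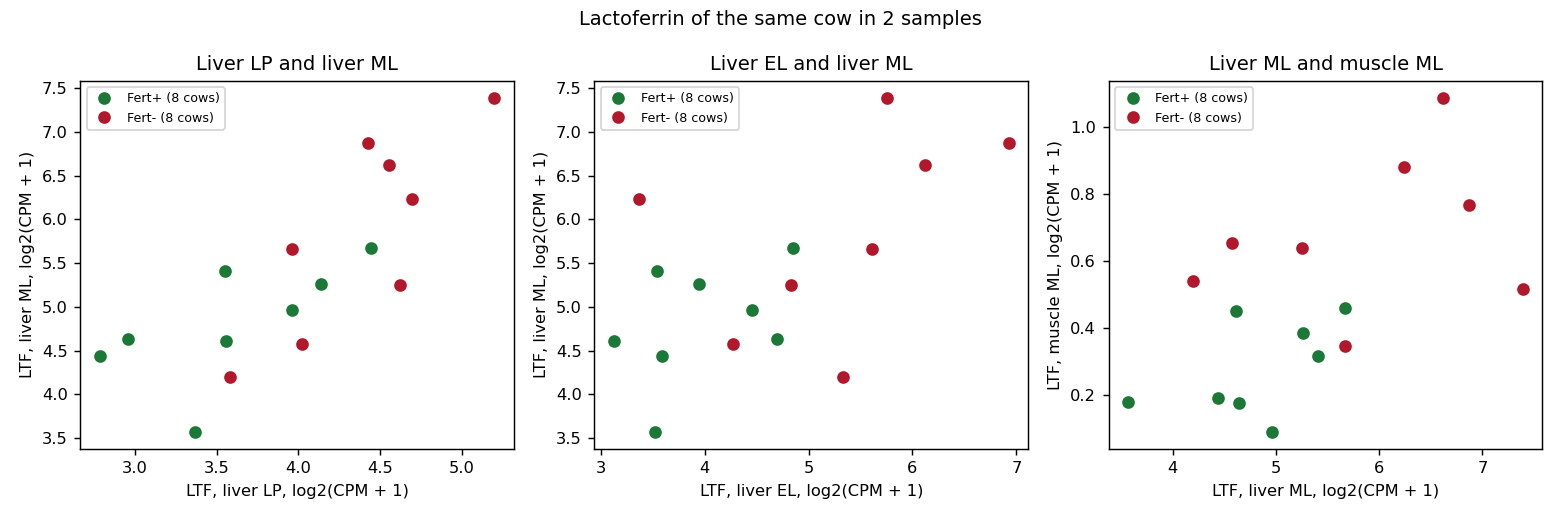
LTF of the same cow in 2 samples, each axis in log2(CPM + 1), for liver LP against liver ML (left), liver EL against liver ML (middle) and liver ML against muscle ML (right), with Fert+ cows in green and Fert- cows in red. The left panel is the tightest (r = 0.80), and in the right panel (r = 0.59) 7 of 8 red points lie above every green one in muscle, while in liver 4 of 8 lie beyond the highest green one and the others among them.

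LTF was then set beside other genes of iron binding, of neutrophils and of the acute phase, counted from lists with the time-point fits over all genes. Symbols were known for 2250 gene identifiers, most of which the study had listed for a difference in these same samples, so the lists are incomplete and tilted toward genes that vary here. The share of all genes called (edgeR adjusted p under 0.05) is the background of each count. In liver 1.04% of genes were called higher and 1.36% lower at EL than at LP, 21.4% higher and 20.3% lower at ML than at EL, and 8.85% higher and 6.32% lower at ML than at LP. In muscle the corresponding shares were 29.9% and 27.5%, 31.5% and 31.5%, and 4.16% and 4.82%. Without the 19-gene libraries no gene in liver was called from LP to EL by edgeR (0 of 13773, with 1624 at an unadjusted p below 0.05), so the liver calls named below for that comparison are lost without them.

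Transferrin (TF), the plasma iron carrier and the only matched relative of LTF, was lower at EL than at LP in liver. It was at 18432 ± 4959 CPM (SD, n = 16) at LP, 12560 ± 4071 CPM at EL and 15225 CPM at ML, and fell by 0.57 on the log2 scale from LP to EL (SE 0.12, edgeR adjusted p = 0.0239). TF is also on the hepatocyte list, of which 4 of 9 genes (AHSG, TF, TTR and CYP2E1) were called lower at EL than at LP in liver and 0 higher, with a median of -0.57. From EL to ML 4 of the 9 were higher and 2 lower, and from LP to ML 0 were higher and 1 lower. Over all liver genes, 1.36% were called lower from LP to EL. Across the 48 liver libraries the Pearson correlation of TF with LTF was -0.53, a description of libraries that share cows and time-points.

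Iron handling genes, of which 11 of 22 symbols were matched, had most of their liver calls from EL to ML. Over all genes, too, that comparison had the most calls in liver, with 21.4% higher and 20.3% lower. Their median log2 fold changes were 0.11 from LP to EL, -0.43 from EL to ML and -0.20 from LP to ML, against medians over all genes within 0.02 of 0. From LP to EL 1 of 11 was higher, haptoglobin (HP), which binds free haemoglobin, and 1 was lower, the transferrin receptor TFRC, with a log2 fold change of -0.50 ± 0.13 (edgeR adjusted p = 0.0353). From EL to ML 0 of 11 were higher and 5 were lower, or 3 called without the 19-gene libraries. The 5 were HP, the ferroxidase ceruloplasmin (CP, -0.90 ± 0.20), the metal importer SLC39A14 (-0.72 ± 0.20), the haem-degrading enzyme HMOX1 (-0.43 ± 0.14), and hepcidin (HAMP), the liver hormone that lowers iron export into plasma. HAMP averaged 60.1 CPM at LP, 164 CPM at EL and 53.6 CPM at ML, and its log2 fold change from EL to ML was -1.24 ± 0.37 (edgeR adjusted p = 0.00809). LTF was higher at ML than at EL in 13 of 16 livers. From LP to ML 0 of 11 iron genes were higher and 1 was lower, TFRC (-0.45 ± 0.13). Of the hepatocyte receptors that can bind lactoferrin, 2 of 6 symbols were matched. The asialoglycoprotein receptor subunit ASGR2 was lower at ML than at LP (-0.50 ± 0.14, edgeR adjusted p = 0.0172), and ASGR1 was not called in any comparison.

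In muscle the iron genes moved in both directions, with medians of 0.28, -0.20 and -0.02 in the same order of comparisons. From LP to EL 4 of 8 tested iron genes were higher and 3 lower, and from EL to ML 3 were higher and 4 lower. Over all muscle genes the shares were 29.9% higher and 27.5% lower from LP to EL, and 31.5% in each direction from EL to ML. HMOX1 went from 29.9 CPM at LP to 158 CPM at EL and 17.7 CPM at ML, and its log2 fold changes were 2.40 ± 0.19 and -3.23 ± 0.20. The ferritin light chain FTL, which stores iron, changed by 1.43 ± 0.14 and -1.48 ± 0.14 in the same comparisons. TFRC, which takes up transferrin iron, went the other way at calving with -2.91 ± 0.45 from LP to EL and 1.10 ± 0.41 from EL to ML. From LP to ML 0 of 8 were higher and 2 were lower, HMOX1 and TFRC.

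Neutrophil genes are of interest because neutrophil granules hold lactoferrin, and 20 gene identifiers were matched to the 44 symbols of the granule and circulating neutrophil lists. In liver 10 of these passed the filter on low counts. From LP to EL 1 of the 10 was called higher, from EL to ML 3 were called lower, and from LP to ML 1 was called higher, with median log2 fold changes of 0.76, -0.50 and 0.05. Of all liver genes, 1.04%, 20.3% and 8.85% were called in those directions. HP and the urea cycle enzyme ARG1, which are on the granule list, are also products of hepatocytes. HP was the only gene called from LP to EL, and ARG1 the only one from LP to ML (0.65 ± 0.19, edgeR adjusted p = 0.0199), and that call too was lost without the 19-gene libraries (0 called). The calprotectin subunits S100A8 and S100A9, cytosolic proteins of neutrophils, fell from EL to ML by 1.60 and 1.89 on the log2 scale (SE 0.55 and 0.56, edgeR adjusted p = 0.0192 and 0.00809). Their EL level came from few cows. S100A9 stood at 81.8 CPM in cow 164, 38.2 CPM in cow 3847 and 35.0 CPM in cow 982 at EL and at no more than 5.49 CPM in the other cows. The 5 livers with the highest S100A9 at EL (cows 164, 3847, 982, 419 and 1179) were also the 5 with the largest ratios of LTF at EL to LP, 3.30, 3.68, 3.05, 5.89 and 3.56, a description seen after the values were known and not tested. The log2 fold change of S100A9 from LP to ML was -0.18 ± 0.55, against 1.40 ± 0.22 for LTF. The summed level of the 6 circulating neutrophil genes ranged from 6.26 to 35.9 CPM at LP, 5.52 to 316 CPM at EL and 6.77 to 18.3 CPM at ML in liver. At ML it ranged from 6.77 to 14.996 CPM in Fert+ cows and from 6.91 to 18.3 CPM in Fert- cows, and its part in the genotype difference of LTF was not tested.

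In muscle the called neutrophil genes had the same signs as the fitted changes of LTF, up at EL and down at ML. The iron genes HMOX1 and FTL had these signs too, while the skeletal muscle genes fell at EL and rose at ML as given above. The part of that shift in the neutrophil changes was not tested. Of 6 tested, 4 were higher at EL than at LP and 0 were lower, and from EL to ML 5 were lower and 0 higher, with medians of 1.14 and -1.18. HP is 1 of these in both comparisons. Of all muscle genes, 29.9% were called higher at EL than at LP and 31.5% lower at ML than at EL. S100A9 changed by 1.39 ± 0.50 and -1.42 ± 0.50, the related S100A12 by 1.22 ± 0.43 and -1.04 ± 0.42, and the leukocyte surface enzyme VNN2 by 1.07 ± 0.26 and -1.001 ± 0.258. From LP to ML 0 of 6 were called, and the fitted change of LTF there was 0.01. Without the 19-gene libraries, 2 of the neutrophil genes were called in muscle from LP to EL and 1 from EL to ML. Some granule genes were not seen: 6 of the 20 matched identifiers had no read in any muscle library, and the summed azurophil granule genes did not exceed 0.842 CPM in any. The list of the specific and gelatinase granules, which includes HP, summed to a median of 1.98 CPM at LP, 3.14 CPM at EL and 1.55 CPM at ML, and its highest library reached 8.09, 175 and 29.8 CPM. The summed circulating neutrophil genes ranged from 1.47 to 4.31 CPM at LP, 1.48 to 19.2 CPM at EL and 0.981 to 8.90 CPM at ML. At ML they lay between 0.981 and 7.35 CPM in Fert+ and between 1.40 and 8.90 CPM in Fert- cows. The transcription factor RUNX1, the only matched gene of the list of LTF regulators, changed by 1.12 ± 0.36 and -1.02 ± 0.36 in muscle (edgeR adjusted p = 0.00801 and 0.0146) and was not called in liver.

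The acute phase genes, secreted by the liver in inflammation, fell in liver after EL, where LTF was higher at ML than at EL. Of 13 matched identifiers, 1 was higher at EL than at LP in liver and 0 were lower, 0 were higher and 10 lower at ML than at EL, and 0 were called between LP and ML. The medians were 1.33, -1.25 and -0.42. Of all liver genes, 1.04% were called higher at EL than at LP and 20.3% lower at ML than at EL. HP, which rose from 5254 ± 12556 CPM to 17816 ± 15670 CPM at EL and was at 2389 CPM at ML, had a log2 fold change of -4.96 ± 1.15 from EL to ML. The serum amyloid genes SAA1 and SAA2 changed by -2.32 ± 0.60 and -3.07 ± 0.78 and lipopolysaccharide-binding protein (LBP) by -2.66 ± 0.52. The SAA genes are close copies of each other, and reads may be shared between them. Without the 19-gene libraries 5 acute phase genes were called from EL to ML. LTF differed from all 13 in the sign of its fitted change from EL to ML, which was 0.68 for LTF and between -4.96 and -0.21 for these genes.

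**Figure D4:**
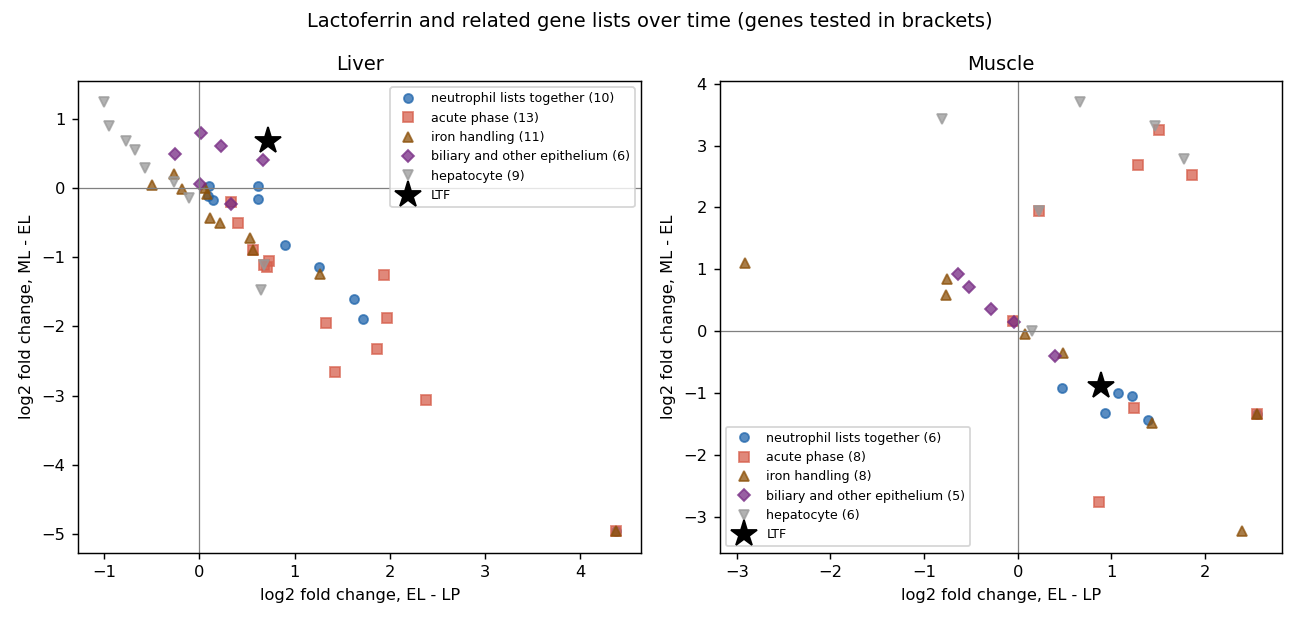
Fitted log2 fold changes from LP to EL (horizontal) against those from EL to ML (vertical), 1 point a gene, for LTF (star), the neutrophil lists (blue), acute phase (red), iron handling (brown), epithelium (purple) and hepatocyte (grey) genes in liver (left) and muscle (right). In liver LTF lies at 0.72 and 0.68, above 0 on both axes. In muscle it lies at 0.89 and -0.88. The called neutrophil genes and the iron genes HMOX1 and FTL have the same signs there. The axes share the EL samples and are not independent, and genes on several lists are drawn once for each.

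The list of biliary and other epithelial genes, only some of which mark bile ducts in liver, included members that were called higher at ML there. Of 6 tested, 0 were called from LP to EL, 3 were higher at ML than at EL, and 2 were higher at ML than at LP, with medians of 0.12, 0.45 and 0.53. Of all liver genes, 21.4% were called higher at ML than at EL and 8.85% at ML than at LP. CFTR, the chloride channel of bile duct and other secretory epithelia, changed by 0.84 ± 0.15 from LP to ML (edgeR adjusted p = 0.000514) and the bile duct keratin KRT19 by 0.81 ± 0.19 (edgeR adjusted p = 0.00456). The bile duct marker EPCAM changed by 0.07 ± 0.13. The summed epithelial genes ranged from 445 to 754 CPM at LP, 318 to 601 CPM at EL and 491 to 848 CPM at ML. At ML they lay between 539 and 768 CPM in Fert+ and between 491 and 848 CPM in Fert- cows. Macrophage genes, for comparison, were higher at ML than at EL for 4 of 6 (the complement C1q chains C1QA, C1QB and C1QC, and CD5L) and at ML than at LP for 1 (C1QB, 0.38 ± 0.13). The part of any cell type in the course of LTF was not tested.

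The genes whose pattern was most like that of LTF were ranked by Pearson's r of log2(CPM + 1) over the 48 libraries of a tissue. These libraries share 16 cows, 3 time-points and 2 genotypes, so r is a description with no test. In liver the first 10 of 13814 genes had r from 0.73 to 0.83, and 5 of them had a known symbol. They were the nucleoside transporter SLC28A3 (0.83), the dicarboxylate transporter SLC13A2 (0.77), the Cdc42 effector CDC42EP5 (0.77), CFTR (0.75) and the alpha-tubulin TUBA1D (0.75). After centring on the 6 combinations of genotype and time-point, SLC28A3 again ranked 1 (0.80), TUBA1D ranked 5 (0.72) and CDC42EP5 ranked 10 (0.68), and the other 7 had no known symbol. SLC28A3 ranged from 1.61 to 4.69 CPM at LP, 1.62 to 9.84 CPM at EL and 1.89 to 14.9 CPM at ML, and CFTR from 2.49 to 7.08, 2.71 to 13.5 and 3.95 to 17.0 CPM. The 6 epithelial genes were spread widely in this order. Besides CFTR, osteopontin (SPP1), a secreted protein of bile duct and other epithelia, had r = 0.64 (rank 51) and KRT19 r = 0.58 (rank 134), whereas KRT8 had 0.24 (rank 3082), EPCAM 0.17 (rank 4242) and ANXA4 0.17 (rank 4323). The adipocyte fatty acid carrier FABP4 stood beside SPP1 with 0.64 (rank 52). Of the 10 neutrophil list genes, r ran from 0.15 for HP (rank 4552) to 0.55 for ARG1 (rank 207), with 0.29 for S100A9 (rank 2332). Of the 13 acute phase genes, r ran from -0.33 for CP to 0.51 for the serum amyloid gene M-SAA3.2 (rank 332). After centring, CFTR had 0.60 (rank 33), SPP1 0.57 (rank 57), M-SAA3.2 0.52 (rank 138), FABP4 0.47 (rank 224), SAA3 0.42 (rank 418) and S100A9 0.39 (rank 576). On that measure S100A12 (0.39, rank 608) and ARG1 (0.34, rank 1033) also stood above KRT19 (0.34, rank 1122), so the order of these genes depends on the centring.

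**Figure D5:**
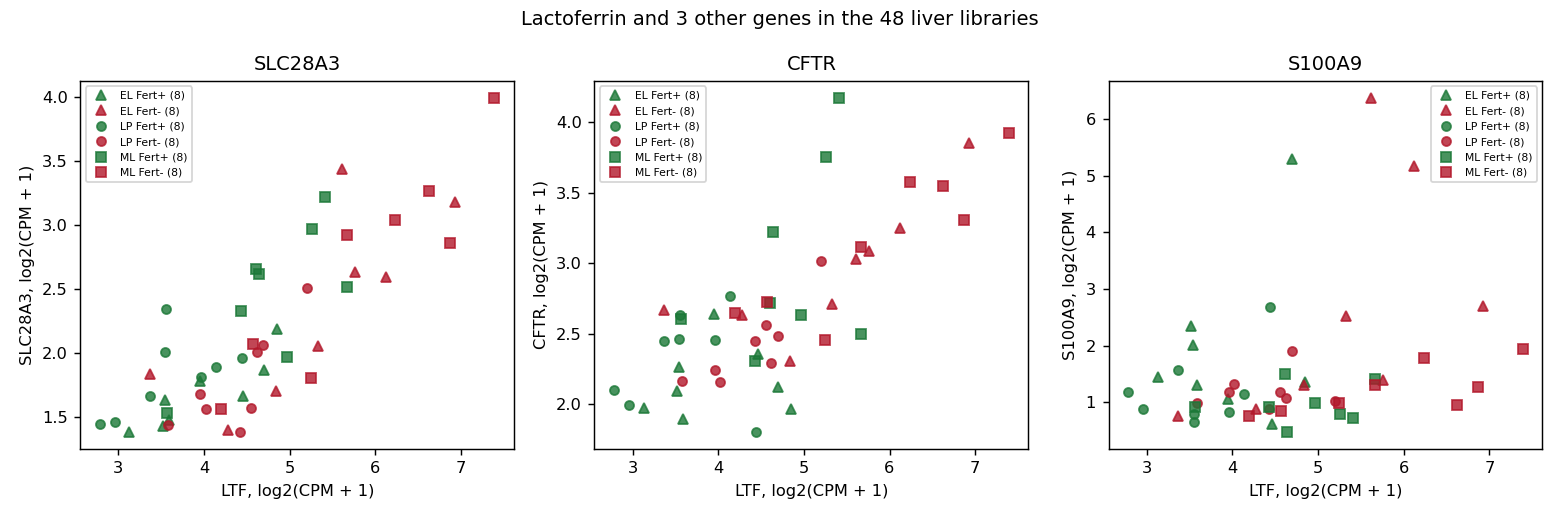
SLC28A3 (left), CFTR (middle) and S100A9 (right) against LTF in the 48 liver libraries, each axis in log2(CPM + 1), with circles for LP, triangles for EL and squares for ML, green for Fert+ and red for Fert-. SLC28A3 and CFTR climb with LTF (r = 0.83 and 0.75), and the 3 highest S100A9 points are EL libraries with 24.9 to 68.5 CPM of LTF.

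In muscle the first 10 of 12674 genes had r from 0.62 to 0.69, and 3 had a known symbol: the purine-degrading enzyme XDH (0.65), ARMC12 (0.63) and the extracellular matrix protein SNED1 (0.63). After removal of the genotype and time-point means the first 10 had r from 0.54 to 0.59, and none had a known symbol. Before that removal the 6 neutrophil list genes had r from 0.18 for CHI3L1 (rank 4195) to 0.36 for S100A9 (rank 1653). The 8 acute phase genes had r from -0.09 for FGB to 0.51 for LBP (rank 186). The 8 iron genes had r from -0.43 for HFE2 to 0.49 for HMOX1 (rank 298). After the removal the neutrophil genes had r from -0.03 for VNN2 to 0.21 for S100A9. With a median of 8.5 read pairs, these correlations carry the counting error of LTF.

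Hepatocyte genes rose in muscle at ML, and since liver holds far more LTF than muscle this bears on the muscle values. Of 6 hepatocyte genes tested in muscle, 5 were higher at ML than at LP and 5 higher than at EL. Of all muscle genes, 4.16% and 31.5% were called higher in these comparisons. Albumin (ALB) stood at 0.689 CPM at LP, 2.25 CPM at EL and 25.6 CPM at ML. Some acute phase genes that hepatocytes secrete, the fibrinogen chains FGA, FGB and FGG and alpha-1-acid glycoprotein (AGP), rose in muscle at ML as well. The sum of the 9 hepatocyte genes in muscle at ML was 2.75 to 178 CPM, which is 0.00193 to 0.117% of the sum in the liver library of the same cow. Liver RNA of the same cow at that share would carry between 0.000661 and 0.0434 CPM of LTF. That is at most 14.2% of the LTF of the muscle library (cow 33) and 2.25% in the median cow. At LP and EL liver RNA of the same cow would carry at most 0.611%. Liver RNA of another cow could carry a different share, which was not calculated, so these values are no upper limit. The hepatocyte sum at ML ranged from 4.31 to 178 CPM in Fert+ and from 2.75 to 166 CPM in Fert- cows.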

How the data were processed

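Poly(A) RNA of liver and semitendinosus muscle was sequenced as paired reads by the authors, who trimmed the reads, aligned them with STAR to the Bos taurus UMD3.1 genome and counted read pairs per Ensembl gene with featureCounts (base calls by CASAVA 1.8, per the submitters' processing notes). The deposited values are whole-number counts per gene and sample, not normalized. The library kit does not mark strand, so reads from an antisense transcript cannot be told apart. A further 96 unnamed columns of pooled tables were not used. LTF and all gene lists were chosen with earlier results of these data known.

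Samples were grouped by the labels' tissue, time-point, fertility group and cow. Genes were filtered with filterByExpr, scaled by TMM and fitted with edgeR 4.0.16 (robust quasi-likelihood, R 4.3.3), genotypes in the 16 libraries of a tissue and time-point and time-points in the 48 libraries of a tissue with cow as a block. Libraries with the same number in their labels were taken as the same cow. Their residuals correlated above 0.1 in 39 of 48 pairs in liver (median 0.24, range -0.25 to 0.68). In muscle they did so in 42 of 48 (median 0.26, range 0.06 to 0.56). No value for pairs of different cows is given here for comparison. The p-values of the genotype comparisons and correlations refer to the spread between cows. Those between time-points refer to the spread that remains within cows after the block. In simulated counts with 200 genes changed by 2-fold, the time-point fit recovered 95.5% of them for liver EL minus LP (13815 genes) and 98.0% for muscle (12675 genes). It made 11 and 5 false calls. The simulation gave all genes 1 dispersion and no difference between cows, so its recovery need not hold for genes with a larger spread. CPM used the TMM factors, and log2 values a pseudocount of 1. DESeq2 1.42.0 and the other alternatives are given in the closing section. No libraries within a condition were duplicates (336 pairs, lowest chi-square per gene 14.8). Symbols came from gene names that the study pairs with identifiers. Genes named were LTF, at most 4 called genes of a list and comparison with the largest fold change, and the 10 genes of a tissue with the highest correlation with LTF, and others (TF, HAMP, EPCAM, S100A12 and members of the lists that were not called) were chosen after their values were seen. Depth per library and the counting intervals (Clopper-Pearson, 95%) are given with the results.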

Additional observations from a re-analysis of the deposited data

How the results depend on the processing

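In every alternative run, including leaving out each of the 16 cows, the genotype difference of LTF kept its sign in each tissue and time-point, and none of the time changes of LTF turned except that from LP to ML in muscle, which lay near 0 (0.01). Where each cow was left out in turn, the log2 genotype difference ranged in liver from -0.98 to -0.66 at LP, -1.75 to -1.23 at EL and -1.44 to -0.997 at ML, and in muscle from -0.73 to -0.29, 0.22 to 0.45 and -1.58 to -1.26, with no edgeR adjusted p below 0.146. The time changes ranged in liver from 0.60 to 0.82 (LP to EL), 0.56 to 0.80 (EL to ML) and 1.34 to 1.47 (LP to ML), and in muscle from 0.73 to 1.02, -1.02 to -0.75 and -0.19 to 0.15. The genotype difference passed the threshold with a single common dispersion, where it was -0.82, -1.59 and -1.29 in liver (adjusted p = 0.00284, 2.05e-06 and 2.22e-08) and -1.42 in muscle at ML (adjusted p = 0.00189), and in the exact permutation test at -0.79 (liver LP), -1.31 (liver EL) and -0.40 (muscle ML) on the log2(CPM + 1) scale. That test uses 1 spread for all genes, and the permutation test is not adjusted over genes. As within-cow means of log2(CPM + 1) the muscle changes were 0.31 from LP to EL and -0.32 from EL to ML, since the pseudocount compresses levels below 1 CPM. Fitted with no replicate block, the liver changes came to 0.81, 0.73 and 1.54 and the muscle changes to 0.88, -0.91 and -0.03. DESeq2 gave no adjusted p for LTF in muscle at EL.

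Among the correlations, Spearman's rho of 0.48 (liver and muscle at ML) and 0.52 (liver EL and ML) missed the adjusted threshold, the latter r was 0.40 without the 2 farthest cows and 0.40 without the 19-gene libraries, and within a genotype r was 0.32 (liver and muscle at ML, Fert-), 0.022 (liver LP and EL, Fert-), 0.65 (liver LP and ML, Fert+) and 0.57 (muscle EL and ML, Fert-). The counts moved most in liver from LP to EL. There 144 genes were called higher and 188 lower in all, and 257 and 112 with no replicate block, 87 and 106 with no gene filter, 442 and 453 with DESeq2 and 0 and 0 without the 19-gene libraries. The neutrophil lists had 1 call, and 3 without the replicate block, 0 with no gene filter, 4 with DESeq2 and 0 without the 19-gene libraries, which was added after seeing the data. Iron handling had 2 calls, and 1, 1, 4 and 0 under the same settings, and acute phase 1 call, and 0 with no gene filter, 8 with DESeq2 and 0 without the 19-gene libraries. From EL to ML in liver, neutrophil calls went from 3 to 5 without the replicate block and 6 with no gene filter, and without the 19-gene libraries iron calls went from 5 to 3 and acute phase calls from 10 to 5. From LP to ML in liver, neutrophil calls went from 1 to 0 without the 19-gene libraries and acute phase calls from 0 to 1 with DESeq2. In muscle, without the 19-gene libraries, neutrophil calls went from 4 to 2 (LP to EL) and 5 to 1 (EL to ML) and acute phase calls from 2 to 1 (LP to EL). From LP to ML in muscle, neutrophil calls went from 0 to 1 without the replicate block and 2 with no gene filter, and acute phase calls from 4 to 7 with no gene filter. The cause of these moves was not tested. Scaling by DESeq2 size factors, run for the LTF differences and the list counts, moved none of these beyond the limits used, nor did omission of robust estimation, run for the time changes of LTF alone.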
